A study of Mus musculus with 473 samples.

Results

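The comparison set sorted midbrain (MB) cells against sorted olfactory bulb (OB) cells of mouse pups at postnatal day 7 (P7). It covered the 143 P7 cells of these regions that the labels mark as having passed quality control, 75 from MB and 68 from OB, of 473 cells in the series, of which 396 passed. They lay on 3 library plates named TH02_16.18.20, TH02_18.20.16 and TH02_20.16.18, which held 20, 30 and 25 MB cells and 27, 16 and 25 OB cells in that order. A further 20 MB and 27 OB cells failed quality control and entered only an alternative.

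Th was found in 74 of 75 MB and 67 of 68 OB cells at overlapping levels, low in some of each, while the genes around it differed. Cells from MB held more transcripts of the dopamine transporter Slc6a3 and of other genes of dopamine handling, of midbrain transcription factors such as Pitx3 and En1, of nicotinic receptor subunits, and in most cells of the glutamate transporter Slc17a6. Cells from OB held the GABA enzymes Gad1 and Gad2, the Dlx factors, Pax6 and Etv1, the peptide gene Trh and the receptor gene Lgr5. These genes were called only where the direction was the same on each of the 3 library plates, so that agreement was required.

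All cells of both regions came from pups carrying the Tg(Th-EGFP)DJ76Gsat transgene, an artificial chromosome in which sequences of the tyrosine hydroxylase gene Th drive the green fluorescent protein eGFP, hemizygous on a Swiss Webster background. For each region, tissue of 5 eGFP-positive pups was pooled. The olfactory bulb was taken whole, while for the midbrain only the fluorescent area was dissected. The tissue was dissociated with papain and cleared on a density gradient, and live eGFP-positive cells were sorted singly and made into Smart-Seq2 libraries, which copy whole polyadenylated transcripts. Since eGFP chose the cells, they are cells in which the Th transgene was active, and the labels' name of dopaminergic neuron is set against Th itself in the results.

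Dopamine is made from tyrosine by tyrosine hydroxylase and then aromatic amino acid decarboxylase, loaded into vesicles by the monoamine transporter Slc18a2 and taken back up by the dopamine transporter Slc6a3. Midbrain dopaminergic neurons project to the striatum and cortex, arise from the floor plate and keep their identity through factors such as Pitx3, Nr4a2, En1, Foxa1 and Foxa2. Dopaminergic cells of the olfactory bulb are local interneurons of the glomerular layer. They are added from migrating precursors after birth, also make GABA, and depend on Dlx, Pax6, Etv1 and related factors.

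Promoter windows are shown for 4 genes: Th, which both cell groups share, and the called gene with the largest fold and a single RefSeq window among the midbrain transcription factors (Pitx3), the bulb transcription factors (Dlx1) and the GABA genes (Gad1). Each holds the 250 bases before the RefSeq start on the GRCm38.p6 build, read along the gene's strand. Capitals mark a match, on either strand, to a homeodomain core (TAATTA), a bicoid-type core (TAATCC), a nuclear receptor half-site (AGGTCA) or an E-box (CAGCTG). No overlap between matches of different motifs occurred in these windows.
Th (chr7:142899996-142900245, minus strand): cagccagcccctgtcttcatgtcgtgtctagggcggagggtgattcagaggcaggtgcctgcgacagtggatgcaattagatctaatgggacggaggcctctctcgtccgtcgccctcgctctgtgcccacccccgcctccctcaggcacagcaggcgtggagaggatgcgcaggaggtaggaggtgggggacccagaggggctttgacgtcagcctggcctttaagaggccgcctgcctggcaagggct
Pitx3 (chr19:46148326-46148575, minus strand): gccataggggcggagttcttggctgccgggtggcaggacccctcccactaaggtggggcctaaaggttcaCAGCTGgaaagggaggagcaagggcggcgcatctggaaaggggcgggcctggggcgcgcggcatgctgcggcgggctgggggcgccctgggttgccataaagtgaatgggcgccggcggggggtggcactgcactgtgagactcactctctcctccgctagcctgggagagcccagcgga
Dlx1 (chr2:71529195-71529444, plus strand): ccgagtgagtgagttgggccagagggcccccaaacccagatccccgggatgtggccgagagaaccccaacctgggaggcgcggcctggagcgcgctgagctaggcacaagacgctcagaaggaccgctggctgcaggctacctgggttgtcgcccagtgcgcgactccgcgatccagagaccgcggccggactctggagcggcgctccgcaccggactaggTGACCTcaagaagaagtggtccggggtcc
Gad1 (chr2:70561879-70562128, plus strand): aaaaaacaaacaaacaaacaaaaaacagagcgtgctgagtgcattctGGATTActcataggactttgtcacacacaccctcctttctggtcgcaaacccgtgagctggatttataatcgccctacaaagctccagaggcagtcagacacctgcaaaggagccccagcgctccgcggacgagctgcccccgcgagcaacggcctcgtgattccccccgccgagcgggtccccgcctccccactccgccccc
The Th window held none of the 4 motifs. The Pitx3 window held 1 E-box, the Dlx1 window 1 half-site, written as TGACCT on this strand, and the Gad1 window 1 bicoid-type core, written as GGATTA. Among all 32851 windows of this length, 4.84% held TAATTA, 6.25% TAATCC, 14% AGGTCA and 13% CAGCTG. A match describes letters and not a bound site.

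The expression columns and the labels fitted each other only after 2 plates were exchanged. On plate TH02_18.20.16 the number of genes at 1 FPKM or more (fragments per kilobase, a level corrected for transcript length and library total) in a cell's column followed the number of expressed genes in its label, with r = 0.999 over 95 cells. On plates TH02_16.18.20 and TH02_20.16.18 the columns taken by name gave r = -0.0338 over 95 cells and -0.0519 over 94 cells, and exchanging these plates well by well gave 0.9987 and 0.9992. The exchanged columns were used throughout. With columns taken by name, 301 genes would be called higher and 70 lower under the rules given next, and genes whose direction turned are given at the end.

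OB cells carried fewer detected genes than MB cells. The labelled number of expressed genes was 4081 in the lowest, 6185 in the median and 7872 in the highest MB cell, against 2146, 3290 and 6078 in OB cells. Of the 68 OB cells, 56 lay below the lowest MB cell. The MB medians on plates TH02_16.18.20, TH02_18.20.16 and TH02_20.16.18 were 6345, 6126.5 and 5730 genes, and the OB medians 3280, 3310 and 3598. The read depth is unknown because no counts were used here, so a gene at 0 is described only as listed at 0. Among 6 housekeeping genes, 2 of 450 values in MB cells (0.444%) and 3 of 408 in OB cells (0.735%) were listed at 0.

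**Figure D1:**
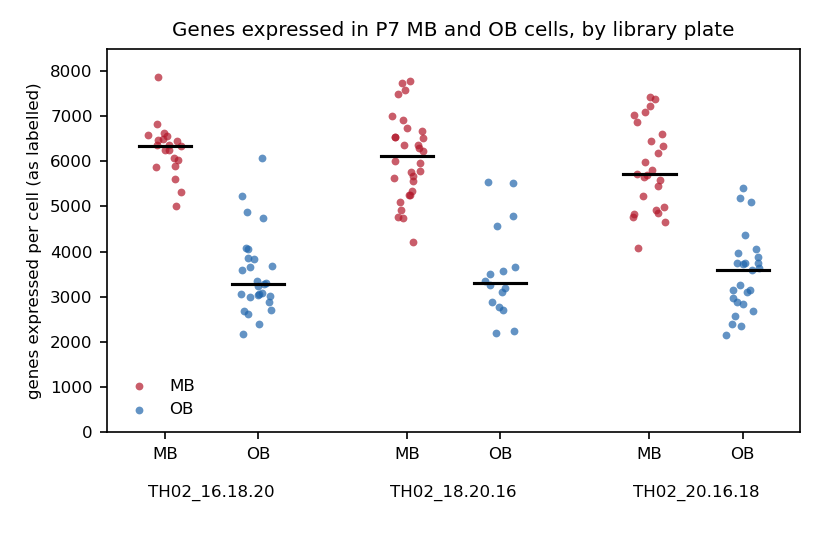
Number of expressed genes in each cell's label (y axis, genes per cell), by library plate (x axis), with MB cells left of OB cells on each plate. Points are cells and bars medians; the MB medians lie between 5730 and 6345 genes and the OB medians between 3280 and 3598.

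The labels give tissue of 5 pups pooled for dissociation and, for all cells of a region, the same sorted source plate and sort day. The 3 library plates were therefore treated as technical splits of 1 pool per region, although no label names the pool of a cell. No test between regions could be made, and no p-value is given. For each gene the fold was taken on each plate as the log2 of mean FPKM + 1 in MB cells over mean FPKM + 1 in OB cells, and the 3 plates were averaged. The ± values are the SD over the 3 plates, which then holds no spread between animals, and folds are MB over OB unless named otherwise. A gene was called higher or lower in MB when its mean fold was at least 2-fold and its direction was the same on each plate. These folds understate changes of genes near 0. Of 9673 counted genes, those with a mean of at least 1 FPKM and found, meaning at 1 FPKM or more, in at least 20% of cells of a region, 1562 were called higher in MB (16.1%) and 874 lower (9.04%). The plates disagreed in direction for 178 of 1740 genes with a mean 2-fold higher in MB and for 48 of 922 with a mean 2-fold lower, and these were not called. A listed gene that is low in both regions is not counted, and one that is high in a single region is, so counts and medians over a list describe its counted members and support nothing more. The count of each list stands beside the shares of all genes called, 16.1% higher and 9.04% lower.

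The balance of calls moved with the way the gap in detected genes was handled. With 11 pairs of MB and OB cells that differed by at most 250 genes (3, 4 and 4 pairs by plate, with a median of 5236 genes in MB cells and 5181 in OB cells), 1182 genes were called higher and 1180 lower, so that 50.04% of the calls were higher, against 64.1% with all cells. Matching also changed which of the labels' expression clusters were compared. The 11 matched MB cells held 5 of cluster P7.MB.1, 0 of P7.MB.2, 5 of P7.MB.3 and 1 of P7.MB.4 (which have 39, 11, 10 and 15 cells), and the 11 matched OB cells held 1 of P7.OB.1, 0 of P7.OB.2 and 10 of P7.OB.3 (which have 20, 33 and 15). Matched folds therefore differ from the others in both gene number and cluster, and the parts of these were not told apart. The share of higher calls was 46.8% in cells with 3000 to 5500 genes, 21.0% when only the 2000 highest genes of each cell were kept, 79.4% without each gene's highest cell and 92.9% when logs were averaged over cells. The median over all 9673 genes was 0.16 with all cells, 0.06 in matched cells, -0.52 with the 2000 highest genes and 0.75 with averaged logs, and every fold is best read against it. A gene that stayed at least 2-fold also kept its direction, so the second count cannot exceed the first. The matched cells were among those that gave the calls, so these counts are not an independent check. Of the 1562 higher genes, 1409 (90.2%) kept their direction in matched cells and 984 stayed at least 2-fold, while of the 874 lower genes 804 (92.0%) kept it and 618 stayed at least 2-fold. After scaling each cell to the same total, 1508 and 873 stayed at least 2-fold. With the 2000 highest genes of each cell, 1241 of the higher genes kept their direction and 774 (49.6%) stayed at least 2-fold, against 871 and 831 of the lower genes. All 4 conditions (matched cells, scaling, the 2000 highest genes, and each gene's highest cell left out) were met at 2-fold by 544 higher (34.8%) and 490 lower genes (56.1%).

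Th itself, the gene that both regions were sorted through, was not called. It stood at 0.401, 1184 and 5350.0 FPKM in MB cells (lowest, median and highest), against 0.420, 909 and 4312 FPKM in OB cells, and the groups overlapped over nearly the whole range. Th transcripts reached 1 FPKM in all but 1 cell of each region. Its plate means were 979, 2341 and 876 FPKM in MB cells and 923, 1725 and 564 FPKM in OB cells, for a log2 fold of 0.39 ± 0.28, and in matched cells the fold was 0.08. The eGFP transcript stood at 0, 266 and 1522 FPKM in MB cells (lowest, median and highest), against 0, 14.5 and 1011 FPKM in OB cells, was found in 69 MB and 39 OB cells, and had a log2 fold of 2.36 ± 0.45. Both Th and eGFP were found in 69 of 75 MB cells (92.0%, exact 95% interval 83.4 to 97.01%) and in 39 of 68 OB cells (57.4%, 44.8 to 69.3%), although every cell had been sorted for fluorescence.

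Of the 12 counted genes of dopamine synthesis, storage, reuptake and breakdown, 7 were called higher in MB and none lower, against a background of 16.1% higher and 9.04% lower over all genes. Their median log2 fold was 2.25 in all cells and 1.96 in matched cells, and 6 of the 7 stayed at least 2-fold when matched. Slc6a3, the dopamine transporter, stood at 0, 409 and 5193 FPKM in MB cells (lowest, median and highest), against 0, 11.3 and 909.9 FPKM in OB cells. Detection covered 64 MB and 40 OB cells. The ranges overlapped, and the highest OB cell lay above the MB median. Its plate folds were 2.95, 3.10 and 2.91, a mean of 2.99 ± 0.10, with the smallest spread among the dopamine genes named here, and the matched fold was 2.63. In the 11 matched pairs it was found in 11 MB and 8 OB cells.

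Slc18a2, the vesicular monoamine transporter, stood at 0, 197 and 1089 FPKM in MB cells (lowest, median and highest), against 0, 0.481 and 323 FPKM in OB cells, and its log2 fold was 3.35 ± 0.36. Cells with Slc18a2 numbered 69 in MB and 32 in OB. Ddc, the decarboxylase that completes dopamine synthesis, was found in 70 MB and 31 OB cells with medians of 173 and 0.555 FPKM and a log2 fold of 2.97 ± 0.22. Further called genes of the list were Drd2, the D2 autoreceptor (3.69 ± 1.04; found in 62 MB and 7 OB cells), Gch1, which makes the cofactor of tyrosine hydroxylase (3.37 ± 0.56), and Maoa, which breaks dopamine down (2.36 ± 0.90). The seventh was Maob, another monoamine oxidase, named after its values were seen, found in 30 MB and 3 OB cells (2.14 ± 1.36), whose fold of 0.84 in matched cells made it the call that did not stay at 2-fold there. Transcripts of Th, Slc6a3 and Slc18a2 were found together in 64 of 75 MB cells (85.3%, exact interval 75.3 to 92.4%) and in 26 of 68 OB cells (38.2%, 26.7 to 50.8%). At a limit of 10 FPKM, chosen after the values were seen, Th was found in 72 MB and 60 OB cells. The 2 MB cells between the limits had 1.24 and 6.35 FPKM and the 7 OB cells 1.45 to 2.82 FPKM, so the labelled name of dopaminergic neuron rested on very little Th in these.

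**Figure D2:**
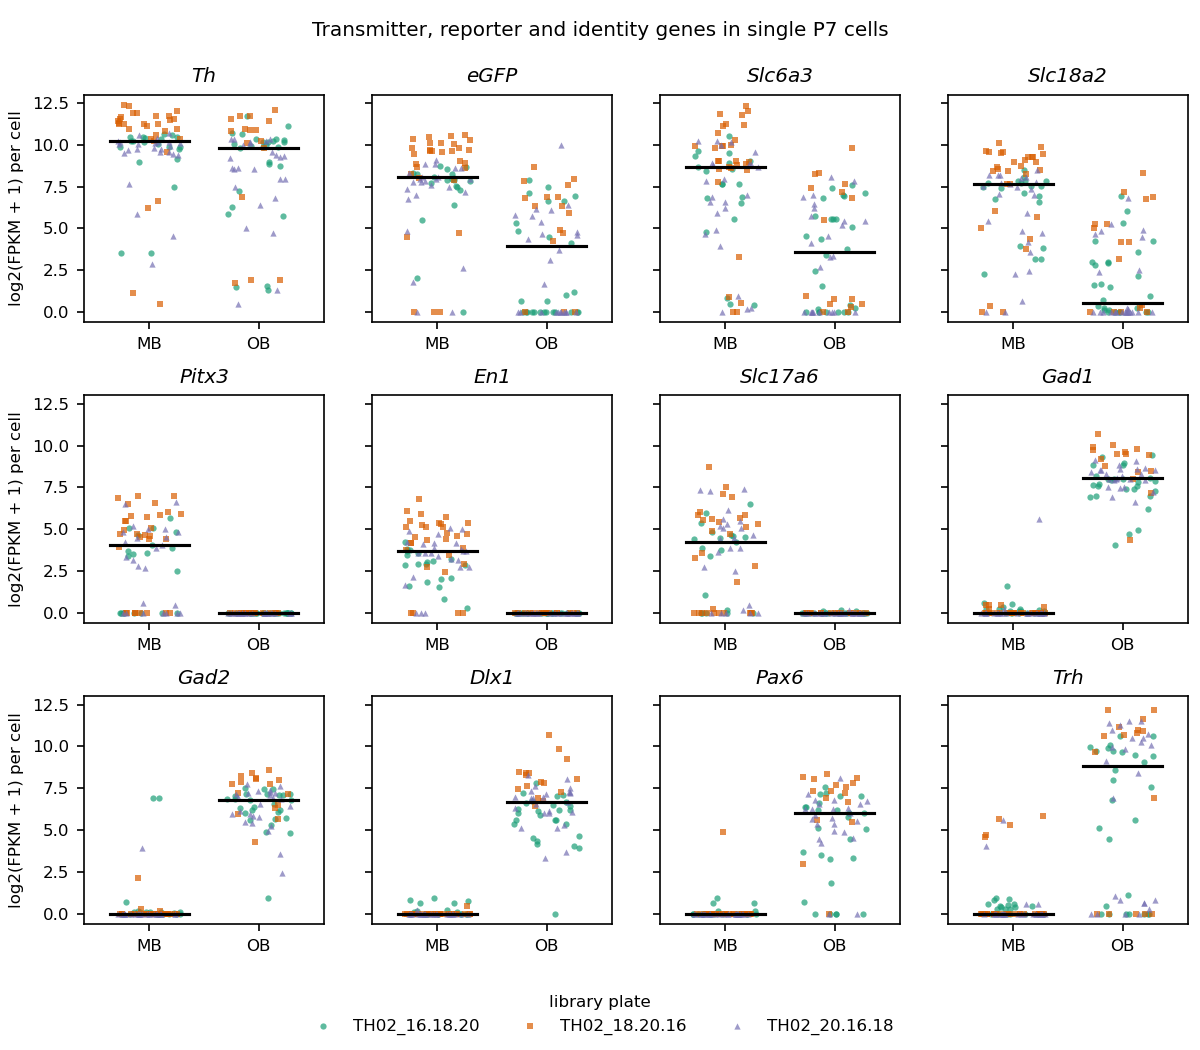
Log2(FPKM + 1) of single cells (y axis) for 12 genes of dopamine, transmitter and regional identity (panels), with MB cells left of OB cells; points are cells and their colour and shape give the library plate. Th spans a like range in both regions, Slc6a3 is higher in MB, and Gad1 was found in 2 MB cells and in all 68 OB cells.

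The midbrain transcription factor list gave 12 of 12 counted genes (13 listed) called higher in MB, with a median of 2.94, and 2.52 in matched cells, where 10 stayed at least 2-fold. Of the 12, 5 were listed at 0 in all 68 OB cells, and no fold is given for those. Pitx3, needed for the survival of substantia nigra dopaminergic neurons, stood at 0, 15.3 and 128 FPKM in MB cells (lowest, median and highest) and was found in 50 of 75, against 0 in all OB cells. En1, an engrailed homeodomain factor of the midbrain, stood at 0, 11.7 and 110.0 FPKM in MB cells and was found in 66, against 0 in all OB cells. In the 11 matched pairs Pitx3 was found in 8 and En1 in 11 MB cells. Otx2, a midbrain patterning factor kept in ventral tegmental neurons, was found in 24 MB cells and was listed at 0 in all OB cells.

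Foxa1 and Foxa2 are forkhead factors of the floor plate from which these neurons arise. Foxa1 was found in 53 MB cells with a median of 9.11 FPKM and in no OB cell, with a log2 fold of 3.47 ± 0.55. Foxa2 was found in 36 MB cells and in no OB cell, with a log2 fold of 3.01 ± 1.21. Foxp2, another forkhead factor, was found in 68 MB and 4 OB cells, and its folds of 1.93, 7.86 and 6.14 on the 3 plates differed widely. A single OB cell held 85.4% of the OB total of Foxp2, and the OB plate means were 15.7, 0.126 and 0.338 FPKM. Nr4a2, the nuclear receptor Nurr1, named here after its values were seen, was shared: it was found in 70 MB and 32 OB cells, its log2 fold was 1.105 ± 0.45, and in matched cells it was -0.42, the other direction.

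Other genes listed as midbrain dopaminergic effectors or markers were called higher in 10 of 11 counted (12 listed), with a median of 4.24, and none was lower. All 10 stayed at least 2-fold in matched cells. Some genes, such as Slc6a3, Chrna6, Chrnb3 and Ret, stand on another list too, so the counts of these lists are not separate. Aldh1a1, an aldehyde dehydrogenase that makes retinoic acid and clears dopamine's aldehyde, had the largest fold of the list, 9.29 ± 0.40. It stood at 0, 1.78 and 7192 FPKM in MB cells and was found in 43, while no OB cell exceeded 0.980 FPKM, so its level varied widely within MB. Chrna6, a nicotinic acetylcholine receptor subunit, stood at 0, 75.97 and 999 FPKM in MB cells and reached at most 0.570 FPKM in OB cells, for a log2 fold of 7.05 ± 1.09. Slc10a4, a vesicular protein of monoamine and cholinergic neurons, was found in 69 MB and 4 OB cells (6.36 ± 1.25). Dlk1, a Notch-family ligand, was found in 65 MB and 2 OB cells (5.00 ± 1.00), and Klhl1, an actin-binding kelch protein, in 60 and 2 (4.24 ± 0.13, matched 1.098).

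Lists that tell midbrain subregions apart gave different counts against OB. Of 10 counted genes (12 listed) associated with the ventral tegmental area, 9 were called higher and none lower, with medians of 3.85 in all cells and 2.54 in matched cells. Of 10 (14 listed) associated with the substantia nigra, 5 were called higher and 1 lower, with medians of 1.34 and 0.43. Of the substantia nigra calls, 2 stayed at least 2-fold in matched cells, against 9 of the ventral tegmental calls. The 2 were Aldh1a7, which was higher in MB, and Grin2c, the lower call (matched -3.14), so the count mixes both directions. Only 1 of the 15 cells of P7.MB.4, the cluster with the highest mean Aldh1a1 and Slc6a3, was among the matched cells, and its part in this count was not tested. Aldh1a7 was found in 27 MB cells and was listed at 0 in all OB cells. Igf1 was found in 25 MB cells and 1 OB cell (2.93 ± 1.13, matched 0.19). Ndnf was found in 20 MB cells and in no OB cell (2.91 ± 0.95, matched 0.95). Sox6, a nigral transcription factor, was found in 18 MB cells and in no OB cell (2.71 ± 0.99, matched 0.67). Kcnj6, the potassium channel GIRK2, was found in 20 MB cells and 1 OB cell with a fold of 1.75 ± 1.46 that was -0.72 in matched cells. Neurod6, Tacr3 and Adcyap1 from the ventral tegmental list were found in 24, 40 and 32 MB cells and in no OB cell, with folds of 4.59 ± 1.00, 4.42 ± 1.05 and 4.43 ± 0.70. The difference between these lists was not tested.

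Transmitter genes separated the regions. Of 6 counted genes of GABA synthesis, transport and breakdown, 5 were called lower in MB and none higher, with a median of -3.33 and of -3.96 in matched cells, where all 5 stayed at least 2-fold. Gad1, which makes GABA from glutamate, stood at 0, 0 and 48.3 FPKM in MB cells (lowest, median and highest), against 15.5, 262 and 1639 FPKM in OB cells, and its plate folds were -7.66, -9.27 and -6.68. Only 2 of 75 MB cells held it at 1 FPKM or more (2.67%, exact interval 0.325 to 9.30%), against all 68 OB cells, of which 64 lay above the highest MB cell. Gad2, the other synthetic enzyme, was found in 4 MB and 67 OB cells with a fold of -5.43 ± 2.32, smallest on plate TH02_16.18.20 at -2.88.

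Slc32a1, which loads GABA into vesicles, was found in 2 MB and 55 OB cells (-3.22 ± 0.24). Abat, which degrades GABA, was found in 55 MB and 60 OB cells (-2.02 ± 0.24). At least 1 of Gad1, Gad2 and Slc32a1 was found in 5 MB cells (6.67%, 2.20 to 14.9%) and in all 68 OB cells. Th and Gad1 were found together in 2 MB and 67 OB cells.

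The vesicular glutamate transporter Slc17a6, called VGLUT2, was higher in MB and the only gene counted of 12 listed for glutamate, acetylcholine, serotonin and noradrenaline. It stood at 0, 17.96 and 423 FPKM in MB cells (lowest, median and highest), against 0, 0 and 0.111 FPKM in OB cells, and its log2 fold was 5.03 ± 0.63. It was found in 51 of 75 MB cells (exact interval 56.2 to 78.3%) and in 0 of 68 OB cells, which allows a share of up to 4.41% as 3 of 68 cells, or 5.28% as the exact upper bound. Th and Slc17a6 were found together in 50 MB cells (66.7%, 54.8 to 77.1%). In the 11 matched pairs Slc17a6 was found in 5 MB cells and in 0 OB cells.

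Of 14 counted transcription factors of bulb interneurons (21 listed), 13 were called lower in MB and none higher, with medians of -4.35 in all cells and -4.24 in matched cells, and 12 stayed at least 2-fold when matched. Dlx1, a homeodomain factor of forebrain interneurons, reached at most 0.909 FPKM in MB cells and stood at 0, 101 and 1621 FPKM in OB cells (lowest, median and highest). No MB cell and 67 OB cells had it at 1 FPKM or more, with a fold of -7.09 ± 1.36. Its relatives Dlx2 (-4.90 ± 1.49) and Dlx5 (-4.95 ± 0.97) were found in no MB cell and in 48 and 38 OB cells. Pax6, needed for bulb dopaminergic interneurons, was found in 1 MB and 59 OB cells (-6.03 ± 0.37). Etv1, also called Er81 and a regulator of Th in the bulb, was found in 10 MB and 64 OB cells (-5.55 ± 1.35). Sp8, a zinc finger factor, was found in no MB and 60 OB cells (-4.77 ± 0.60).

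Neuropeptide genes split in both directions, with 7 of 17 counted (27 listed) called higher and 4 lower and a median of 0.51; 10 of the 11 calls stayed at least 2-fold in matched cells. Trh, the precursor of thyrotropin-releasing hormone, stood at 0, 0 and 56.2 FPKM in MB cells (lowest, median and highest), against 0, 460.3 and 4665 FPKM in OB cells. It was found in 7 MB and 46 OB cells, and its plate folds of -8.39, -7.71 and -8.03 (mean -8.04 ± 0.34) were close together. Npy was found in 6 MB and 19 OB cells with a more variable fold of -5.42 ± 2.24. On the MB side, cholecystokinin (Cck) stood at 0, 198 and 3117 FPKM in MB cells (lowest, median and highest), against 0, 0 and 364 FPKM in OB cells, was found in 61 MB and 8 OB cells and had a fold of 5.65 ± 1.99. Vip, vasoactive intestinal peptide, had a median of 0.421 FPKM and a maximum of 15715 FPKM in MB cells, where it was found in 29, against a maximum of 676 FPKM in OB cells (6.26 ± 1.19). Grp, gastrin-releasing peptide, was found in 58 MB and 46 OB cells (2.35 ± 1.04), and its fold was -2.09 when cells that failed quality control were included.

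Nicotinic receptor subunits were called higher in 5 of 6 counted (9 listed), with a median of 4.25, and all 5 stayed at least 2-fold when matched. Beside Chrna6, Chrnb3 was found in 55 MB cells and in no OB cell (5.72 ± 0.82), Chrna4 in 57 MB and 3 OB cells (5.04 ± 1.11), Chrna3 in 48 and 1 (3.45 ± 1.64) and Chrna7 in 26 and 1 (2.10 ± 0.67). Chrna6 and Chrnb3 lie side by side on chromosome 8, and neither was found in an OB cell.

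Trophic factor receptors and ligands were called higher in 6 of 10 counted (15 listed) and lower in none, and all 6 calls stayed at least 2-fold when matched. Gfra1, a co-receptor for the neurotrophic factor GDNF, was found in 59 MB and 4 OB cells (4.46 ± 0.64). Ret, the signalling receptor that works with it, was found in 68 and 33 cells (2.00 ± 0.43), and Gfra2 in 53 and 14 (2.26 ± 0.96). Bdnf was found in 46 MB cells and 1 OB cell (3.13 ± 1.50). The neurotrophin receptors Ntrk3 (2.74 ± 1.14) and Ntrk2 (1.26 ± 0.30) were also higher, although Ntrk2 had a fold of -0.25 when only the 2000 highest genes of each cell were kept.

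Axon guidance and adhesion genes were called higher in 18 of 32 counted (37 listed) and lower in 1, with a median of 1.28, and 15 of the 19 stayed at least 2-fold in matched cells. The members with the largest folds were Cadm1, a synaptic adhesion molecule (4.64 ± 1.67), the cadherin Cdh8 (4.55 ± 1.98), the netrin Ntn1 (4.12 ± 0.75), the guidance cue Slit2 (3.89 ± 1.28), the cadherin Cdh11 (3.57 ± 0.87) and the axonal adhesion molecule L1cam (3.15 ± 1.24). L1cam was found in all 75 MB cells and 31 OB cells. The one lower member was Sema3e, a secreted semaphorin named after its values were seen, found in 18 MB and 43 OB cells (-3.05 ± 0.40).

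**Figure D3:**
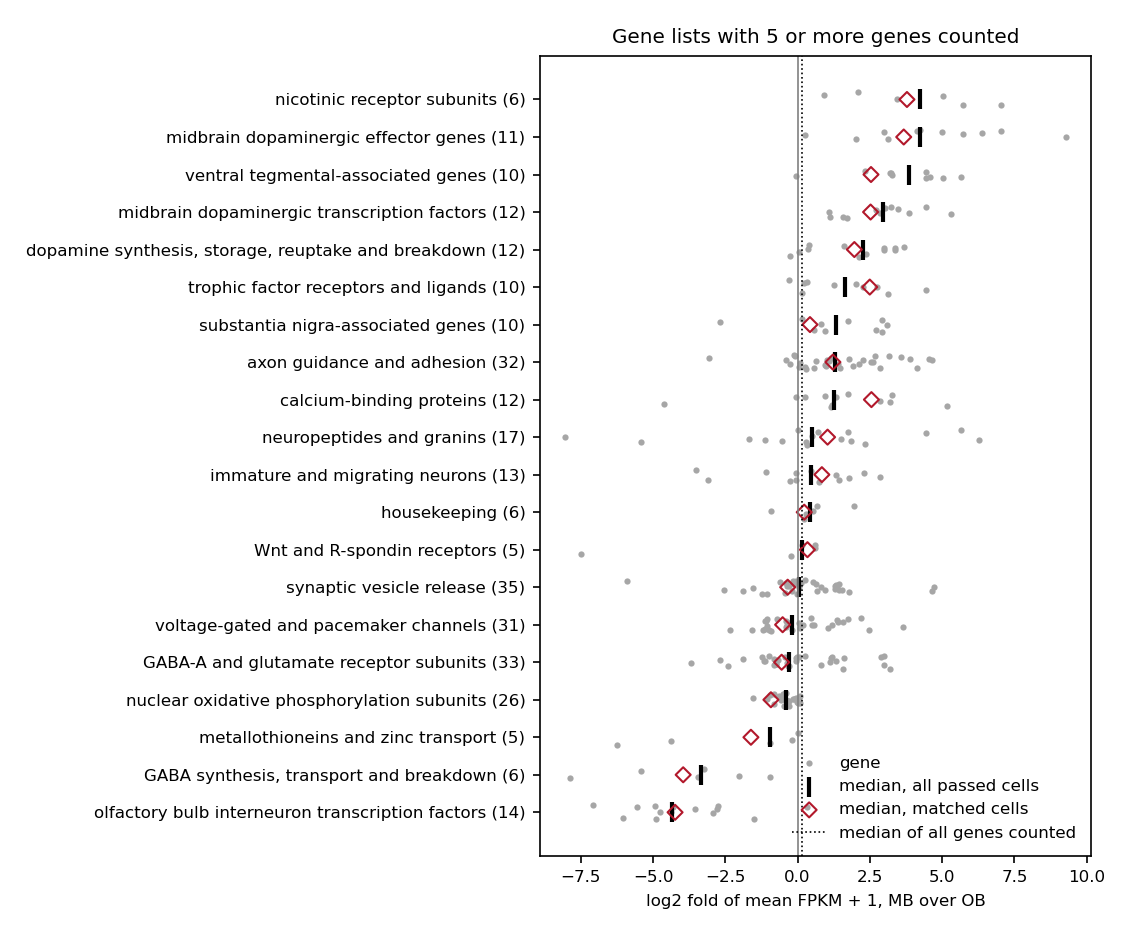
Log2 fold of mean FPKM + 1, MB over OB (x axis), of the counted genes in each list with at least 5 (rows; the number counted is in parentheses); grey points are genes, black bars medians over all passed cells and open diamonds medians over matched cells. The dotted line is the median of all 9673 genes, 0.16. The midbrain transcription factors lie right of 0 (median 2.94) and the bulb transcription factors have a median of -4.35.

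Calcium-binding proteins were called higher in 8 of 12 counted (14 listed) and lower in 1. Of these calls, 7 stayed at least 2-fold when matched. Hpcal1, a neuronal calcium sensor, was found in 62 MB and 2 OB cells (5.16 ± 1.37), Calb1, calbindin, in 64 and 16 (3.27 ± 0.10), and the lower member Pcp4l1 in 31 and 60 (-4.61 ± 0.19). Its paralog Pcp4 went the other way and was found in all 75 MB and 27 OB cells (1.74 ± 0.27). Vsnl1 had a fold of 3.21 ± 0.06 but of 0.67 in matched cells, and Necab1 one of 2.84 ± 0.99. Calb2, calretinin, named after its values were seen, was not called. Its mean fold was -0.06, and its plate folds of -0.14, -1.54 and 1.51 differed in direction. It was found in 72 MB cells with a median of 158 FPKM and in 16 OB cells, whose highest reached 8864 FPKM, so few OB cells with high values stood against many MB cells with lower ones. In matched cells, which held 1 OB cell of P7.OB.1, the Calb2 fold was 4.99.

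Genes of the excitable membrane and synapse were called in both directions, and their medians lay near that of all genes. Voltage-gated and pacemaker channels gave 9 higher and 6 lower of 31 counted (33 listed), with a median of -0.19. Of these channel calls, 11 stayed at least 2-fold when matched. Kcnn3, the small-conductance calcium-activated channel SK3, was found in 63 MB and 3 OB cells (3.65 ± 2.08), the sodium channel subunit Scn3b in 75 and 29 (2.20 ± 0.81), and Kcnab1 had a fold of 2.47 ± 0.48 that was 0.05 in matched cells. Cacnb2, a calcium channel subunit, was found in 18 MB and 45 OB cells (-2.34 ± 0.17), and the fast potassium channel Kcnc1 had a fold of -1.56 ± 0.73.

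Synaptic vesicle release genes gave 10 higher and 6 lower of 35 counted (36 listed), with a median of 0.06. In matched cells, 10 of these calls stayed at least 2-fold. Members of the list differed in direction. Synpr, synaptoporin, was found in 17 MB and 66 OB cells with a fold of -5.90 ± 0.42. The vesicle protein Sv2b was found in 65 MB cells and in no OB cell (4.63 ± 0.60). Sncg, gamma-synuclein, was found in 35 MB cells and 1 OB cell (4.72 ± 1.13), while the complexin Cplx1 (-2.55 ± 0.19) and the priming factor Unc13c (-1.88 ± 1.14) were lower and Sv2c (1.79 ± 0.39) was higher. GABA-A and glutamate receptor subunits gave 9 higher and 7 lower of 33 counted (34 listed), with a median of -0.29. Of these receptor calls, 11 stayed at least 2-fold when matched. Among AMPA receptor subunits, Gria1 was found in 51 MB and 65 OB cells (-3.68 ± 0.32) and Gria3 in 51 and 3 (3.21 ± 2.18), the opposite direction. The NMDA receptor subunits likewise differed, with Grin2c at -2.69 ± 1.28 and Grin3a at 2.90 ± 0.42, the second of which was -0.22 in matched cells. Gabrq, a GABA-A receptor subunit (2.98 ± 0.53), and the metabotropic receptor Grm8 (2.98 ± 0.79) were higher.

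Genes of immature and migrating neurons gave 5 higher and 3 lower of 13 counted (17 listed). Of these calls, 5 stayed at least 2-fold when matched. Dcx, doublecortin of migrating neuroblasts, was found in 43 MB and 59 OB cells (-3.52 ± 0.58, matched -1.71), and Cd24a, a surface protein of neuroblasts, in 39 and 43 (-3.09 ± 0.45). The third lower gene, the transcription factor Sox4, named after its values were seen, had a fold of -1.09 ± 0.42, and of 0.09 in matched cells. The higher genes included the microtubule regulators Stmn2 (2.85 ± 0.63) and Stmn1 (2.30 ± 0.63), the neuronal tubulin Tubb3 (1.78 ± 0.25, matched 0.97) and Dpysl5 (1.43 ± 0.10, matched 0.84), each found in all 75 MB cells and in 43 to 58 OB cells. Of 2 counted cell cycle and progenitor genes (12 listed), the growth factor receptor Egfr was lower and was found in 1 MB and 18 OB cells (-2.54 ± 0.28).

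Metallothioneins, small metal-binding proteins, and zinc transport genes gave 2 lower of 5 counted (6 listed). Mt1 stood at 0, 0 and 59.6 FPKM in MB cells (lowest, median and highest), against 0, 216 and 2956 FPKM in OB cells, was found in 20 MB and 57 OB cells and had plate folds of -6.60, -5.96 and -6.18. Mt2 was found in 8 MB and 37 OB cells (-4.39 ± 1.14). Lgr5, a receptor for R-spondins known for marking adult stem cells in the gut and here the only called one of 5 counted Wnt and R-spondin receptor genes (13 listed), stood at 0, 0 and 114 FPKM in MB cells (lowest, median and highest), against 0, 299 and 2645 FPKM in OB cells, with a fold of -7.48 ± 0.75. Cells with Lgr5 numbered 6 in MB and 55 in OB. Nuclear subunits of oxidative phosphorylation gave 2 lower of 26, Cox7c (-1.53 ± 0.36) and Ndufa4 (-1.05 ± 0.38), and a median of -0.42. That share of lower calls lay near the 9.04% over all genes and is not read as a result of the list. None of the 26 was called higher, against 16.1% of all genes. Their median was -0.92 in matched cells, against 0.06 for all genes, and this difference was not tested. Of 6 housekeeping genes, the tubulin Tubb5 was called higher (1.97 ± 0.26), a share near the 16.1% over all genes, and their median was 0.42.

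Markers of other cells in these tissues were low in most cells. The summed markers of astrocytes were 0, 0.145 and 219 FPKM in MB cells (lowest, median and highest), against 0, 0.0634 and 414 FPKM in OB cells. For the oligodendrocyte lineage they were 0, 2.87 and 73.4 FPKM in MB cells, against 0, 0 and 193 FPKM in OB cells. The median was 0 in both regions for microglia and macrophages, endothelial cells and pericytes, mitral and tufted cells, and erythrocytes and choroid plexus, with highest cells of 8.21, 171, 68.96 and 34.96 FPKM in MB and 31.4, 181, 39.1 and 78.3 FPKM in OB. Tbx21 and Eomes, which define mitral and tufted cells of the bulb, were listed at 0 in all cells of both regions. Of the 5 genes listed for mitral and tufted cells, 3 were found in no MB cell and 3 in no OB cell. Of the marker genes on these lists, 3 were counted, and all were called higher: Aldoc of astrocytes (2.27 ± 0.49, matched -2.96), Mbp of oligodendrocytes (1.29 ± 0.64) and Cdhr1 of mitral and tufted cells (2.07 ± 0.63, matched -0.13). The part of such RNA in the other folds was not tested.

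A rule of size took genes averaging 20 FPKM or more and found in at least 50% of cells of the higher region on each plate, with the direction and a 2-fold size kept in matched and scaled cells and no cell holding over 50% of the total. The 15 highest in MB were Chrna6, Slc10a4, Chrnb3, Cck, Plcxd3, Fxyd7, Nrn1, Foxp2, Ucp2, Hpcal1, Chrna4, Slc17a6, Dlk1, Sdc3 and Sdc2. Those not yet described were Plcxd3, a phospholipase-like protein (5.61 ± 0.73; found in 67 MB and 1 OB cells), Fxyd7, a regulator of the sodium pump (5.45 ± 1.08; 73 and 9), Nrn1, neuritin (5.34 ± 0.98; 64 and 1), and Ucp2, a mitochondrial carrier (5.24 ± 0.41; 49 and 1). The heparan sulphate proteoglycans Sdc3 and Sdc2, syndecans of the cell surface, had folds of 5.00 ± 0.96 and 4.95 ± 1.39. These genes were chosen by their folds, so their size is a description.

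The 15 lowest in MB by the same rule were Trh, Gad1, Lgr5, Dlx1, Mt1, Pax6, Synpr, Mlip, Etv1, Gad2, Zeb2, Sparcl1, Dlx2, Sp8 and Syt10. Mlip, a protein that binds lamin in muscle, was found in 6 MB and 48 OB cells (-5.62 ± 0.74). Zeb2, a zinc finger factor of interneuron development, was found in 2 and 61 (-5.38 ± 0.72), the secreted matrix protein Sparcl1 in 17 and 54 (-5.03 ± 0.56), and the synaptotagmin Syt10, described in bulb neurons, in 16 and 52 (-4.64 ± 1.13). None of these 30 genes had a plate of the other direction, since the rule required it. Th and Slc6a3 stood outside both lists.

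**Figure D4:**
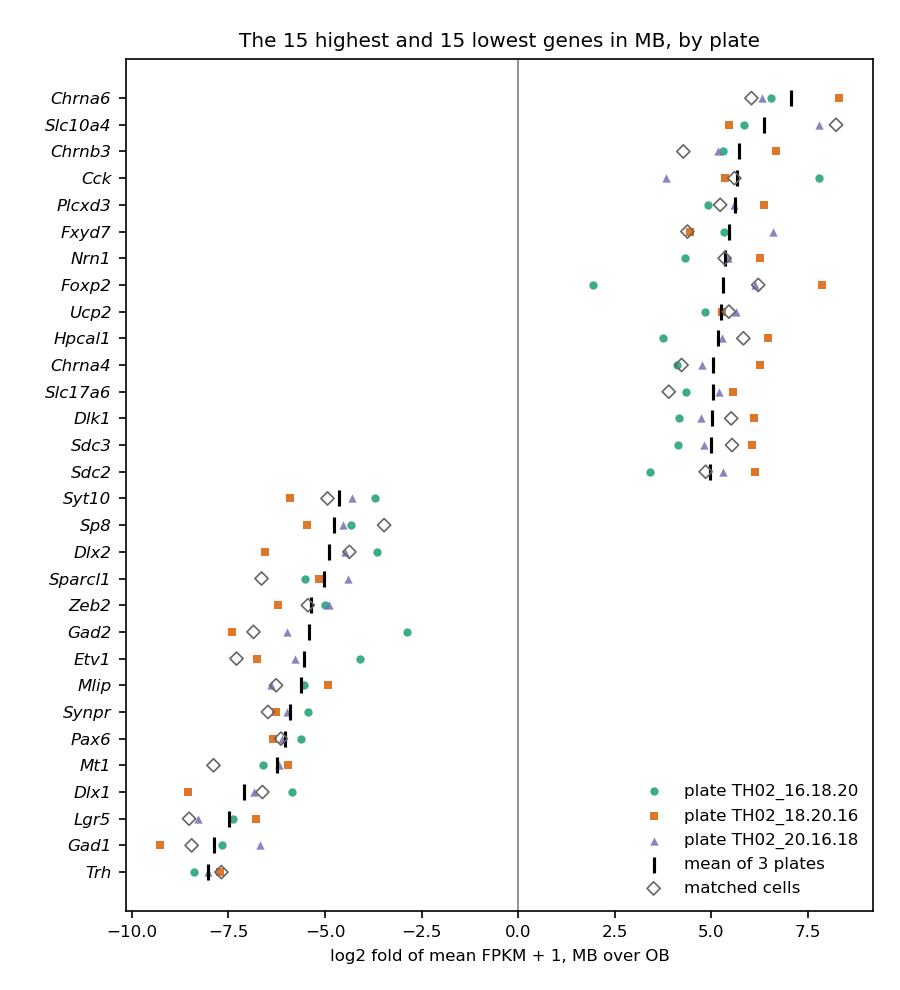
Log2 fold of mean FPKM + 1, MB over OB (x axis), for the 15 highest and 15 lowest genes of the rule (rows); coloured points are the 3 plates, black bars their mean and open diamonds the matched cells. All points of the higher genes lie right of 0 and all of the lower genes left of 0, and Foxp2 spreads widely, from 1.93 to 7.86.

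The labels also divide these cells into clusters that the submitters made from expression, so levels by cluster are a description. The MB cells fell into P7.MB.1 (39 cells, median 5903 genes), P7.MB.2 (11, 6243), P7.MB.3 (10, 5223.5) and P7.MB.4 (15, 7030), and the OB cells into P7.OB.1 (20, 2920), P7.OB.2 (33, 3227) and P7.OB.3 (15, 4785). Mean Th was 1880.4, 59.5, 1147 and 1749.9 FPKM in the 4 MB clusters in that order, against 149, 1281 and 1425 FPKM in the 3 OB clusters. The cluster with the least Th was P7.MB.2 in MB and P7.OB.1 in OB. Slc6a3 averaged 474, 0.375, 153 and 2078 FPKM in MB clusters, against 0.126, 106 and 66.5 FPKM in OB clusters, and eGFP averaged 9.16 FPKM in P7.MB.2 and 544 FPKM in P7.MB.1.

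Other genes of the comparison were high in some clusters and low in others. Aldh1a1 averaged 2838 FPKM in P7.MB.4, and 430.3, 9.27 and 3.96 FPKM in the other MB clusters. Vip averaged 5657 FPKM in P7.MB.3, and 38.8, 1.05 and 0.497 FPKM in P7.MB.1, P7.MB.2 and P7.MB.4. Slc17a6 was highest in P7.MB.2 at 138 FPKM, the cluster with least Th, and averaged 27.4 FPKM in P7.MB.1. In OB, Gad1 was present throughout, at 218, 425 and 409 FPKM. Trh (at 18.4, 979 and 1773 FPKM) and Lgr5 (at 39.4, 581 and 539 FPKM) were low in P7.OB.1, while Calb2 averaged 1064 FPKM there and 0.871 and 0.746 FPKM in the others. Dcx averaged 193, 57 and 30.04 FPKM over the OB clusters. Without P7.OB.1, 1800 genes were called higher and 795 lower, and without P7.MB.2, an alternative chosen after seeing the data, 1525 and 921.

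**Figure D5:**
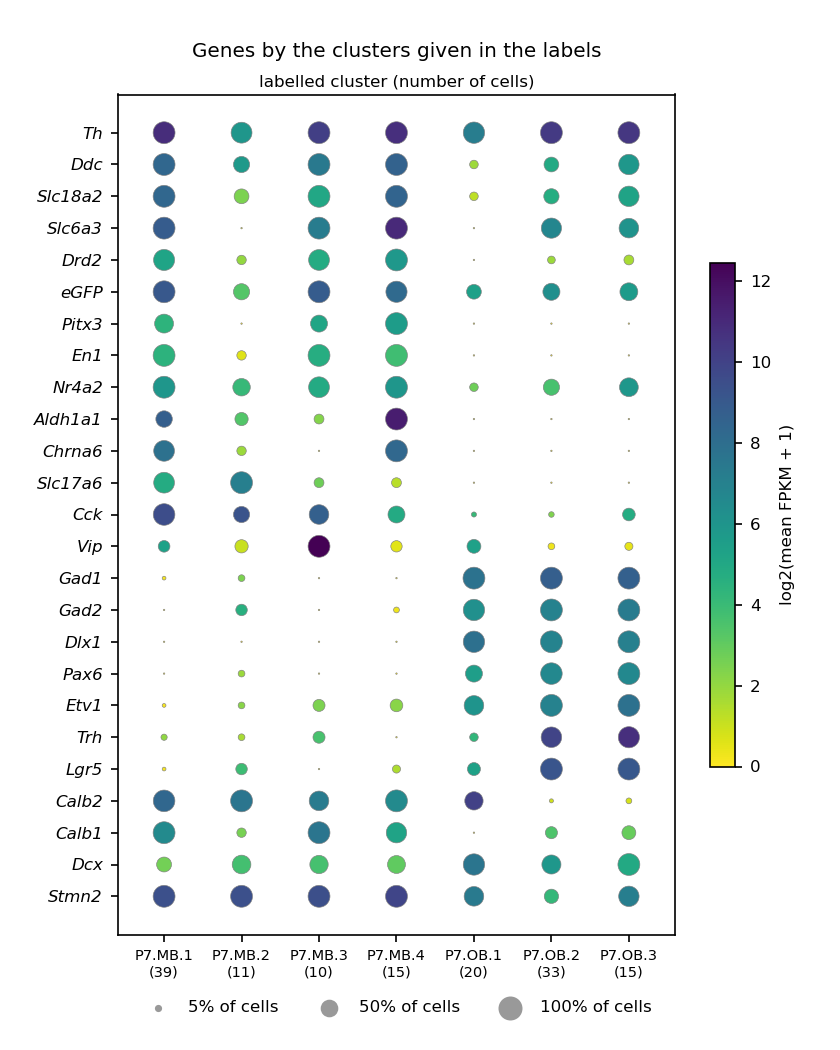
Genes (rows) in the labels' clusters, the 4 MB clusters left of the 3 OB clusters (columns, number of cells in parentheses); colour gives log2(mean FPKM + 1) and dot size the percent of cells in which the gene was found. Th is low in P7.MB.2 and P7.OB.1, Gad1 is high in each OB cluster, and Aldh1a1 and Vip are highest in P7.MB.4 and P7.MB.3.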

How the data were processed

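RNA of single sorted cells was measured as Smart-Seq2 libraries. The authors deposited FPKM values, made with HISAT 2 and Cuffnorm on the mm10 build per the submitters' processing notes; the read depth of a cell is not given in the sources used here. In all, 28952 features were listed, named through the annotation table at hand (20508 matched with the same ID version and 8128 with another). A further 188 columns, of the series' other cells, were not used.

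Columns of plates TH02_16.18.20 and TH02_20.16.18 were exchanged well by well, on the evidence of the labels' gene numbers alone. Plate means, log2 folds of mean FPKM + 1, calls and 95% intervals of shares (exact, after Clopper and Pearson, for counting error alone) were computed with Python 3.11.15, numpy 2.4.6, pandas 2.3.3 and scipy 1.17.1, and plotted with matplotlib 3.10.9. The fold and call steps were tried on cells redrawn from the OB cells, with known folds put into some genes. Both groups of that trial came from OB cells, so it cannot speak to the gap in detected genes between the regions. Median FPKM totals per cell were 205564, 493126 and 268038 in MB cells and 199528, 545503 and 241292 in OB cells on plates TH02_16.18.20, TH02_18.20.16 and TH02_20.16.18, so folds were taken within plates. No test was made because each region was treated as a single pool of 5 pups, of which cells and plates are not replicates. Doublets were not called.

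The cells, the 28 gene lists and the rules were chosen with earlier results of these data known. Beside Th, Slc6a3 and eGFP, the text names the 15 highest and 15 lowest genes by the rule stated with them, and from each list up to 6 called genes with the largest folds; 1 of them is not reported here. Maob, Nr4a2, Calb2, Sema3e and Sox4 were named after their values were seen. A total of 404 of 405 listed genes had a row. Alternatives were the pooled mean, pseudocounts of 0.1 and 10, averaged logs, scaling, matched cells, a window of gene numbers, the 2000 highest genes per cell, columns by name, plates, single cells or clusters left out, failed cells included, other filters and a 4-fold rule.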

Additional observations from a re-analysis of the deposited data

How the results depend on the processing

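No paired analysis was possible because each region was treated as a single pool, and plates and wells pair no animals. Of the 1562 genes higher and 874 lower in MB, the counts became 386 and 270 with a pseudocount of 10, 3617 and 278 with averaged logs, 664 and 2493 with the 2000 highest genes of each cell, 301 and 70 with columns by name, 2451 and 1574 on plate TH02_18.20.16 alone, and 506 and 246 at 4-fold. Lower calls were 1346 in cells with 3000 to 5500 genes. Higher calls were 2450 without each gene's highest cell and 885 at a mean of 10 FPKM. Leaving out a plate gave 1587 to 1950 higher and 930 to 1141 lower. The other count alternatives, pooled means (2101 higher, 788 lower), a pseudocount of 0.1 (1819, 1046), scaling (1607, 1100), matched cells (1182, 1180), failed cells (1505, 785) and no filter (1877, 1201), stayed within 1.5 times the count.

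The median log2 fold of midbrain dopaminergic transcription factors, 2.94, was 5.93 and 0.84 with pseudocounts of 0.1 and 10, 1.80 with averaged logs, 4.45 scaled, 1.81 with the 2000 highest genes, 0.55 with columns by name and 4.01 on plate TH02_18.20.16 alone, and 2.30 to 3.41 without a plate. The median log2 fold of olfactory bulb interneuron transcription factors, -4.35, was -6.86 and -1.75 with those pseudocounts, -3.26 with averaged logs, -6.04 scaled, -0.59 with columns by name, -5.32 on that plate, -2.86 with no filter and -4.70 to -3.83 without a plate. The median log2 fold of GABA synthesis, transport and breakdown, -3.33, was -4.62 and -2.42 with those pseudocounts, -4.05 scaled, -3.96 matched, -3.01 with the 2000 highest genes, -0.18 with columns by name, -2.99 with failed cells, -3.61 without P7.OB.1, -4.43 at a mean of 10 FPKM and -3.39 to -3.29 without a plate. The median log2 fold of all genes counted, 0.16, was 0.32 pooled, 0.058 with a pseudocount of 10, 0.75 with averaged logs, 0.060 matched, 0.015 in the window, -0.52 with the 2000 highest genes, 0.47 without the highest cell, 0.25 without P7.OB.1, 0.049 with no filter and 0.10 to 0.20 without a plate.

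Genes whose direction turned with columns by name were Chrna6 (-0.025), Chrnb3 (-0.16), Cck (-2.26), Fxyd7 (-0.075), Ucp2 (-0.038), Aldh1a1 (-1.35), Ddc (-0.16), Drd2 (-0.31), Gch1 (-0.46), Gfra2 (-0.30), Klhl1 (-9.14e-04), Maoa (-0.34), Necab1 (-0.42), Ret (-0.35), Slc18a2 (-0.23), Slc6a3 (-0.50), eGFP (-0.15), Lgr5 (0.26), Mlip (0.34), Sp8 (0.23), Cacnb2 (0.81), Cd24a (0.21), Cplx1 (0.16), Gria1 (0.23), Pcp4l1 (0.48), Sema3e (0.34) and Slc32a1 (0.31). In matched cells Aldoc (-2.96), Cdhr1 (-0.13), Grin3a (-0.22), Kcnj6 (-0.72), Nr4a2 (-0.42) and Sox4 (0.085) turned. Aldoc was -0.061 in the window and -0.55 with failed cells, Grp -2.09 with failed cells, and Mbp (-0.27) and Ntrk2 (-0.25) turned with the 2000 highest genes. Causes were not tested. Of the 111 called genes named, 97 stayed at least 2-fold in matched cells, 103 in the window, 111 scaled, 107 with the 2000 highest genes and 21 with columns by name. The alternative without P7.MB.2 was chosen after seeing the data, and with it 1525 genes were higher and 921 lower. The lack of replicate pools limits all of these values, and the unknown depth limits genes listed at 0.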
